A study of Mus musculus with 9 samples.

Results

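The receptors of the interleukin-6 family, the kinases bound to them, Stat3, its inhibitor Socs3 and the C/EBP factors that act beside Stat3 were followed in mouse heart by RNA sequencing. The 10 genes were taken by name as members of the pathway: Il6ra, Il6st, Osmr, Lifr, Jak1, Jak2, Stat3, Socs3, Cebpb and Cebpd. They are 10 of the 13890 genes in the count table, and all 10 passed the filter on low counts that left 13364 genes for testing. The 10 genes and the lists used below were chosen with earlier results of these data known. Their counts of calls beside the share of all genes are therefore a description.

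Cytokines of this family, among them IL-6, oncostatin M and leukaemia inhibitory factor, bind a private receptor chain that pairs with the shared chain gp130, the product of Il6st. The receptor-bound Jak kinases then phosphorylate Stat3, which enters the nucleus and switches on its target genes. One of these targets is Socs3, which binds gp130 and the kinases and shuts the signal down, while Cebpb and Cebpd encode factors of the acute-phase response. In cardiac muscle the pathway is known for survival and hypertrophic responses, and in muscle wasting for its acute-phase component. RNA levels say nothing of the phosphorylation of Stat3.

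All 9 animals were male NSG mice, an immunodeficient NOD-scid/IL2Rg null strain without mature T, B or NK cells, 8 weeks old at the start and killed about 3 weeks later by the deposited design text, or some days after that by the methods of the paper. The sham mice (S, animals 2, 3 and 5) had surgery without tumour cells. By the sample labels, T mice (animals 11, 12 and 15) received HCT116 cells, a human colorectal cancer line, into the spleen as a model of liver metastasis. A + T mice (animals 20, 21 and 22) received the same cells and weekly ACVR2B/Fc, a soluble receptor that captures activins, myostatin and related ligands. Each group held 3 hearts, 1 library per animal, and no library is labelled as from mice given ACVR2B/Fc without tumour.

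The libraries labelled T were checked against fold changes listed with the paper. Fold changes were fitted here for the 429 genes in the list of changed genes that accompanies these data, and set beside its columns. The change of the libraries labelled T against S differed from the column for tumour hosts against sham by a median of 0.69 on the log2 scale, with the same sign for 326 genes. From the column for ACVR2B/Fc alone against sham it differed by a median of 0.0046, with the same sign for 428 genes. A + T vs. S differed from the sum of the columns for its 2 steps by a median of 0.0020. Whether the labels of the libraries or the headings of the list differ from the animals cannot be told apart here. The paper describes the 429 genes as those changed in tumour hosts against sham, at a fold of at least 1.5 and P under 0.05. None of the 10 genes is in that list, whereas 4 of them passed these thresholds in T vs. S here. Every direction given for T therefore refers to the libraries labelled T, and the change in A + T vs. S compares the other groups only, although the T libraries enter the estimate of spread in that test.

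The libraries held 12392222 to 19732471 counts, so that 3 counts, taken as the floor, correspond to 0.152 to 0.281 CPM, the counts scaled to a common library size. Rn45s, a precursor of ribosomal RNA, took 4.57% to 19.6% of the counts. The 6 cardiomyocyte markers summed to 55314 to 61039 CPM in S and 45298 to 52936 in T. In A + T they summed to 55389, 55816 and, in animal 22, 38679. In T vs. S 2 of these markers were called higher and 1 lower, where 21.2% of all genes were called in either direction. Of the T, B and NK cell markers 1 was in the table, at no more than 1.0 CPM. The 6 fibroblast markers summed to 1350 to 1553 CPM in sham, 813 to 939 in T and, in A + T, 1034 to 1509, and all 6 passed the test as lower in T vs. S. Of the 6 smooth muscle and pericyte markers 5 were called lower in T vs. S, with sums of 391 to 476 CPM in S and 193 to 265 in T. Atrial markers summed to 3002 to 3086 CPM in S, 862 to 4555 in T and 795 to 2056 in A + T. The highest sum was in animal 12. All 6 were lower without overlap in A + T vs. S, with none called, where 32.4% of all genes did not overlap. In T vs. S all 6 were lower too and 1 was called, where 21.2% of all genes were called in either direction. The part of these cell types in the changes of the 10 genes was not tested. Animals 12 and 22 stood apart in the 3 markers of airway and lung epithelium in the table, with sums of 103.9 and 1278 CPM against 0.5 to 2.4 in the other hearts. The 3 neutrophil markers in the table summed to 3.8, 5.8 and, in animal 5, 21.5 CPM in S and to 19.8 to 26.3 in T. All 3 were higher in T vs. S and none was called. In A + T they summed to 18.1, 18.7 and, in animal 22, 214 CPM. The mesothelial markers of animal 22 summed to 175.5 CPM, against 31.5 to 115.4 in the others, of which animal 12 was the highest. Adipocyte markers summed to 90.5 CPM in animal 12, against 8.9 to 26.4 in the others. Counts of calls are therefore also given without these animals. Since whole hearts were sequenced, fewer cells of a type and less RNA per cell cannot be told apart.

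Changes were tested with edgeR, and a gene was called when its P-value, adjusted over the 13364 genes by the Benjamini-Hochberg method, was under 0.05. Levels are CPM with TMM normalization, given as mean ± SD with n = 3 per group, and changes are log2 fold changes ± SE. The T libraries enter T vs. S as well as A + T vs. T, and the S libraries enter both comparisons against sham. For any single gene an exact two-sided permutation test of 3 against 3 cannot go below P = 0.1, and it reached 0.1 wherever the groups did not overlap.

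In T vs. S, 5 of the 10 genes rose and none fell by this test. Stat3, Socs3, Osmr, Lifr and Cebpb were the 5, where 10.3% of all genes tested were called higher and 21.2% in either direction. The median change of the 10 genes was 0.64, against −0.0038 over all genes. The groups did not overlap for 7 of the 10 genes, against 42.6% of all genes. With the looser P of the study (under 0.05 before adjustment) joined to its fold of at least 1.5, 4 genes passed, Lifr being the one lost, and 14.2% of all genes passed. Without animals 12 and 22, 6 genes were called, Cebpd being the one added.

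In A + T vs. T, Stat3, Osmr and Lifr fell and none of the 10 rose, where 2.79% of all genes were called lower and 5.88% in either direction. The median change was −0.26, against 0.0098 over all genes. The groups did not overlap for 4 of the 10 genes, against 25.4% of all genes. Only Osmr passed the thresholds of P and fold, as did 8.10% of all genes, and 3 of the 10 passed them without animals 12 and 22. Without these animals, Stat3 and Osmr were called and Lifr was not.

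In A + T vs. S, Stat3, Socs3 and Osmr rose and none fell, where 4.67% of all genes were called higher and 8.31% in either direction. The median change was 0.41, against 0.0034 over all genes. The groups did not overlap for these 3 genes alone, against 32.4% of all genes. Stat3 and Socs3 passed the thresholds of P and fold, as did 8.91% of all genes. The same 3 genes were called without animals 12 and 22.

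**Figure D1:**
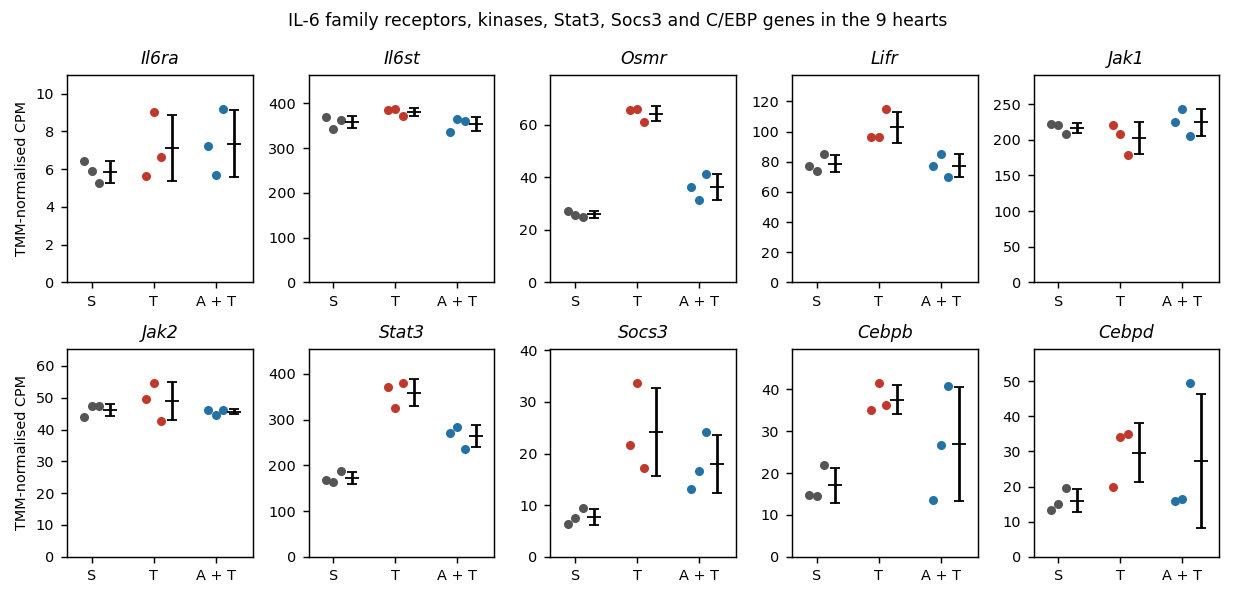
TMM-normalised CPM of the 10 genes (vertical axes, starting at 0) in the hearts of S, T and A + T mice. Each point is 1 animal and the bar beside it is mean ± SD (n = 3). Stat3 and Osmr separate all 3 groups, Il6st, Jak1 and Jak2 stay within a narrow band, and Cebpb and Cebpd spread most in A + T.

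Compared per transcript length, the shared receptor chain was the most abundant of the 10 in sham hearts and the private IL-6 receptor the least. On the scale of the deposited table (normalised CPM per kilobase), the S means ran in the order Il6st 65.4 ± 2.50, Jak1 40.6 ± 1.44, Stat3 38.4 ± 2.87, Cebpb 11.3 ± 2.70, Jak2 9.12 ± 0.368, Lifr 7.59 ± 0.55, Cebpd 7.09 ± 1.43, Osmr 5.36 ± 0.253, Socs3 2.89 ± 0.565 and Il6ra 1.78 ± 0.169. In that order the ranges of mean ± SD overlapped for Jak1 and Stat3, Cebpb and Jak2, and Lifr and Cebpd. In T the level per length of Stat3, 79.5 ± 6.71, stood above that of Il6st, 69.6 ± 1.5, and Osmr at 13.3 ± 0.578 stood above Lifr at 9.91 ± 1.01. In A + T, Il6st at 64.5 ± 2.83 was again the first, followed by Stat3 at 58.4 ± 5.43, and the ranges of mean ± SD overlapped. Il6ra was the lowest of the 10 in every group, at 2.15 ± 0.515 in T and 2.22 ± 0.519 in A + T.

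Of the receptor chains, Osmr, which pairs with gp130 to bind oncostatin M, changed in all 3 comparisons. Lifr, the chain for leukaemia inhibitory factor and cardiotrophin, changed in the comparisons that use T. Il6st and Il6ra were called in none by edgeR, nor by DESeq2 or at an unadjusted P under 0.05 (0 of 2 in each comparison), and differences between the chains were not tested.

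Osmr (chr15:6813577-6874969, minus strand, GRCm38) stood at 27.3, 25.7 and 24.9 CPM in sham, 65.7, 66.0 and 61.0 in T and, in A + T, 36.4, 31.3 and 41.3. The 3 groups did not overlap, with A + T between S and T. The mean was 26.0 ± 1.23 CPM in sham, 64.2 ± 2.83 in T and, in A + T, 36.3 ± 5.02. Osmr was 2.47-fold higher in T vs. S (1.31 ± 0.10, adjusted P = 8.7e-05) and 1.77-fold lower in A + T vs. T (−0.82 ± 0.10, adjusted P = 0.00325). In A + T vs. S it was 1.40-fold higher (0.49 ± 0.10, adjusted P = 0.0199). The first of these calls and the second held when any 1 library was left out, with changes of 1.28 to 1.35 and of −0.93 to −0.72. The third was lost without animal 2, 3 or 5 of S, and with scaling by library size only (0.48, adjusted P = 0.101). Fibroblasts carry this receptor, and the fibroblast markers fell in T vs. S; their part in the change of Osmr was not tested.

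Lifr (chr15:7090614-7197489, plus strand) stood at 77.1, 74.1 and 85.2 CPM in sham, 96.7, 96.7 and 115 in T and, in A + T, 77.3, 85.0 and 69.8. All T hearts lay above all others, while A + T and S overlapped. The rise in T vs. S was 1.30-fold (0.38 ± 0.10, adjusted P = 0.0237), and the fall in A + T vs. T was 1.33-fold (−0.41 ± 0.10, adjusted P = 0.0443). A + T vs. S gave −0.03 ± 0.10 (adjusted P = 0.899). The call in T vs. S was lost without animal 2 or 3 of S or animal 15 of T, with an adjusted P of 0.119 when only the library size was used for scaling. That in A + T vs. T held in 1 of the 9 fits without a library and in 4 of the 9 other settings.

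Il6st (chr13:112464070-112510086, plus strand) was close to flat, at 358 ± 14.0 CPM in sham, 381 ± 8.39 in T and, in A + T, 354 ± 15.8. Its single values were 369, 343 and 364 in sham, 385, 387 and 371 in T and, in A + T, 336, 365 and 361. The T hearts lay above the others without overlap, by 0.09 ± 0.07 in T vs. S (adjusted P = 0.428), and A + T vs. T gave −0.11 ± 0.07 (adjusted P = 0.431). A + T vs. S gave −0.02 ± 0.07 (adjusted P = 0.905).

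Il6ra (chr3:89864059-89913196, minus strand) encodes the chain that binds IL-6 itself and rested on 71 to 152 counts per library, the fewest of the 10 genes. It stood at 6.41, 5.88 and 5.28 CPM in sham, 5.64, 9.03 and 6.64 in T and, in A + T, 7.23, 5.67 and 9.18. The groups overlapped in every comparison. The changes were 0.28 ± 0.22 in T vs. S (adjusted P = 0.393), 0.05 ± 0.22 in A + T vs. T (adjusted P = 0.919) and 0.33 ± 0.22 in A + T vs. S (adjusted P = 0.365). With this SE, changes of the size seen for Lifr could not be read for Il6ra.

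The kinases showed no called change in any comparison with edgeR, and 0 of 2 passed with DESeq2 or at an unadjusted P under 0.05. Jak1 (chr4:101152367-101265282, minus strand), the main kinase of gp130, stood at 222, 220 and 208 CPM in sham, 221, 208 and 178 in T and, in A + T, 225, 243 and 206. The groups overlapped, and the changes were −0.10 ± 0.10 in T vs. S (adjusted P = 0.515), 0.15 ± 0.10 in A + T vs. T (adjusted P = 0.399) and 0.05 ± 0.10 in A + T vs. S (adjusted P = 0.777). Jak2 (chr19:29251828-29313080, plus strand) averaged 46.2 ± 1.86 CPM in sham, 49.0 ± 5.86 in T and, in A + T, 45.6 ± 0.878. Its changes were 0.09 ± 0.09 (adjusted P = 0.531), −0.11 ± 0.09 (adjusted P = 0.536) and −0.02 ± 0.09 (adjusted P = 0.920) in the same order.

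**Figure D2:**
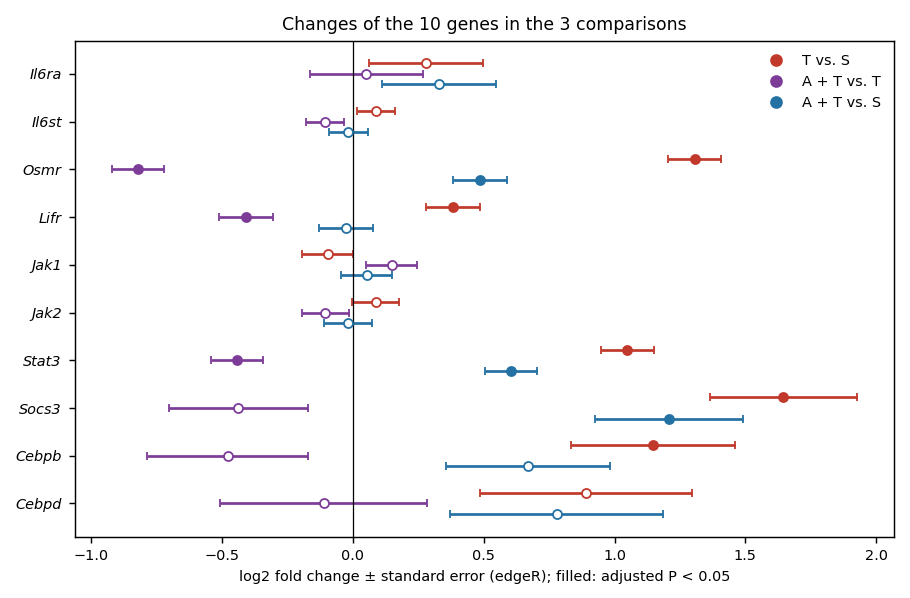
Log2 fold change (horizontal axis, edgeR, bars SE) of each of the 10 genes in the 3 comparisons, coloured by comparison. Filled points have an adjusted P under 0.05. The filled points are at Osmr, Lifr, Stat3, Socs3 and Cebpb, and only Osmr and Stat3 are filled in all 3 comparisons.

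Stat3 (chr11:100885098-100939540, minus strand) encodes the transcription factor on which these receptors converge. It stood at 167, 164 and 188 CPM in sham, 372, 324 and 379 in T and, in A + T, 270.1, 284 and 237. As for Osmr, the 3 groups did not overlap and A + T lay between S and T. Its means of 173 ± 13.1, 358 ± 29.6 and 264 ± 24.2 CPM correspond to a 2.07-fold rise in T vs. S (1.05 ± 0.10, adjusted P = 0.000175). It was 1.36-fold lower in A + T vs. T (−0.44 ± 0.10, adjusted P = 0.0310) and 1.52-fold higher in A + T vs. S (0.61 ± 0.10, adjusted P = 0.00811). The calls in both comparisons against sham held when any 1 library was left out. The fall in A + T vs. T lost its call without animal 3 of S, 11 or 15 of T or 20 of A + T, where the change ran from −0.51 to −0.37 over all such fits, and with only the 2 groups compared in the fit (−0.44, adjusted P = 0.0844) or scaling by library size only (−0.41, adjusted P = 0.139).

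Socs3 (chr11:117966079-117970047, minus strand), the feedback inhibitor, had the largest change of the 10 genes in T vs. S. It stood at 6.41, 7.51 and 9.47 CPM in sham, 21.6, 33.6 and 17.1 in T and, in A + T, 13.04, 16.6 and 24.1. All T and all A + T hearts lay above all S hearts, and T and A + T overlapped. With means of 7.80 ± 1.55, 24.1 ± 8.51 and 17.9 ± 5.64 CPM, it was 3.13-fold higher in T vs. S (1.65 ± 0.28, adjusted P = 0.00296) and 2.31-fold higher in A + T vs. S (1.21 ± 0.28, adjusted P = 0.0292). A + T vs. T gave −0.44 ± 0.27 (adjusted P = 0.367). The change in T vs. S was 1.33 without animal 12 and was called in every fit without a library. The call in A + T vs. S was lost without animal 2, 3 or 5 of S or 21 or 22 of A + T, with changes of 0.94 to 1.39.

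Stat proteins bind palindromes of the form TTCNNNGAA, and looser sites of the form TTCNNNNAA are also bound by Stat3. The 250 bases before the RefSeq start were searched on both strands for 9 of the 10 genes. The looser form, which contains the strict one, was found in 7 of the 9, all but Lifr and Cebpb, and in 34.2% of 32851 windows of all genes. The 9 are counted by gene, whereas the share is of windows. Lifr has 2 windows, chr15:7129322-7129571 and chr15:7140292-7140541, both inside the span of the gene given above. Among the 9 the strict form was found only at Socs3, against 7.02% of all windows. The C/EBP form TTGCNNAA was found in none of the 9 and in 9.56% of all windows. The sequences before the start of the 3 genes called in A + T vs. S are shown 5′ to 3′ on the gene's strand (RefSeq, GRCm38.p6), with the match in capitals. They are from chr11:100939541-100939790 for Stat3, from chr11:117969452-117969616 for Socs3 and from chr15:6874330-6874358 for Osmr, and the last 2 were shortened because part or all of the window lies in an annotated exon. The matches begin 239, 154 and 35 bases before the start in the same order.
Stat3: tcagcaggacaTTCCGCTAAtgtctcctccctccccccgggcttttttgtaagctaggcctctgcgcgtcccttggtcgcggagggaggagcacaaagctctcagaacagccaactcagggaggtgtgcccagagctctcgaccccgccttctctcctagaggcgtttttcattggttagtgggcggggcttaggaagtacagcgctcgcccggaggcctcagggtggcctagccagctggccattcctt
Socs3: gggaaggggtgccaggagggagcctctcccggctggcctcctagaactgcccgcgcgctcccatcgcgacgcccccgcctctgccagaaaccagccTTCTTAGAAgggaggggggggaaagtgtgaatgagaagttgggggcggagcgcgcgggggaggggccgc
Osmr: ccccggcgctTTCCCGTAActcccgcccc
A match is a description of the letters and does not show that Stat3 binds there. The looser form also matched at Il6ra, Il6st, Jak1 and Jak2, which were called in no comparison. It did not match at Lifr and Cebpb, which were called in T vs. S.

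Cebpb and Cebpd, whose products bind the promoters of acute-phase genes, were higher on average in T and A + T than in S, and spread widely among the A + T hearts. Cebpb (chr2:167688915-167690418, plus strand) stood at 14.9, 14.5 and 21.8 CPM in sham, 35.1, 41.4 and 36.2 in T and, in A + T, 13.6, 26.6 and 40.7. The T hearts lay above all S hearts, whereas the A + T hearts ran from below the lowest S heart to within the range of T. Cebpb rose 2.22-fold in T vs. S (1.15 ± 0.31, adjusted P = 0.0263), a call lost without animal 2 or 3 of S or 11 or 12 of T. A + T vs. T gave −0.48 ± 0.31 (adjusted P = 0.389) and A + T vs. S gave 0.67 ± 0.31 (adjusted P = 0.208). The latter value was 0.24 without animal 22 and 0.99 without animal 20, where it was called (adjusted P = 0.0240).

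Cebpd (chr16:15887286-15891031, plus strand) stood at 13.3, 15.1 and 19.6 CPM in sham, 19.9, 34.1 and 34.9 in T and, in A + T, 15.9, 16.4 and 49.3. T lay above S without overlap, and animal 22 alone stood above the other A + T hearts. The changes were 0.89 ± 0.41 in T vs. S (adjusted P = 0.145), −0.11 ± 0.40 in A + T vs. T (adjusted P = 0.900) and 0.78 ± 0.41 in A + T vs. S (adjusted P = 0.253). Without animal 22 they were 0.90 (adjusted P = 0.00879), −0.87 (adjusted P = 0.0494) and 0.03, so that Cebpd was then called in both comparisons that use T. Since animal 22 is neither T nor S, it enters T vs. S only through the estimate of spread. In T vs. S Cebpd was also called in 2 of the 9 other settings, with only the groups compared in the fit and without animals 12 and 22. Animal 22 is the heart with 214 CPM of neutrophil markers and 1278 CPM of airway and lung markers, and the part of these cells in its C/EBP levels was not tested.

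**Figure D3:**
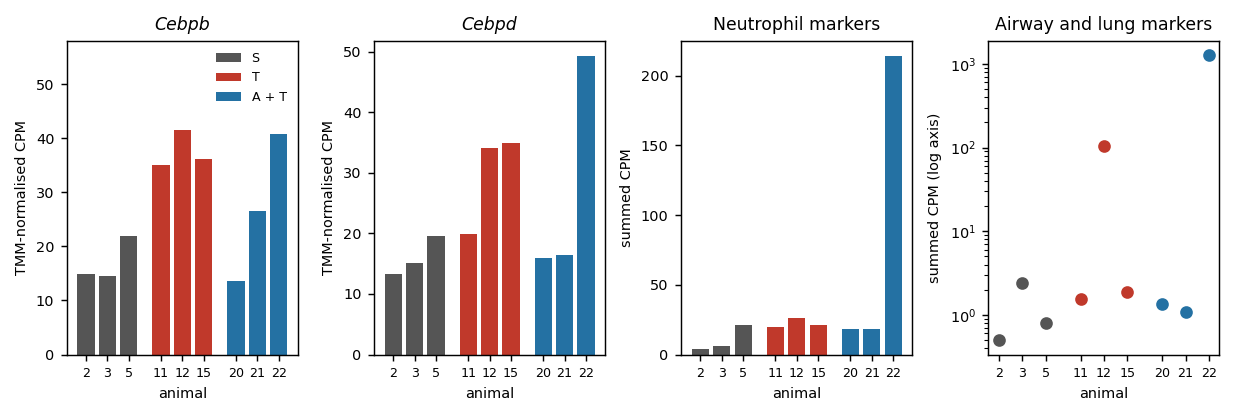
Cebpb and Cebpd (TMM-normalised CPM) and the summed CPM of neutrophil markers and of airway and lung markers (log axis) in each of the 9 hearts, by animal number and coloured by group. Animal 22 of A + T is the highest for Cebpd and for both marker sums, and animal 12 is the second for airway and lung markers.

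Among the other Jak and Stat genes, Stat2 and Jak3 were called in both comparisons against sham and not in A + T vs. T. Stat2, which acts in interferon signalling, rose in T vs. S (0.51 ± 0.09, adjusted P = 0.00305) and in A + T vs. S (0.42, adjusted P = 0.0200). Jak3, the kinase of leukocyte cytokine receptors, rose in the same comparisons (0.59 ± 0.15, adjusted P = 0.0175, and 0.71, adjusted P = 0.0191). The calls of Stat2 and Jak3 in A + T vs. S were lost without animal 2, 3 or 5 of S or 21 of A + T, and that of Jak3 in T vs. S without animal 3 or 5. Stat6, a Stat of interleukin-4 signalling, had the highest level per length of these genes over the 9 hearts, though Stat5b was at 17.0 ± 1.30 against its 16.9 ± 1.10 in T. Stat6 was not called, with −0.20 ± 0.08 in T vs. S (adjusted P = 0.0894).

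No ligand of the family was called by edgeR or DESeq2. At an unadjusted P under 0.05, 2 passed in T vs. S, Clcf1 (0.80 ± 0.28) and Ebi3 (−0.96 ± 0.36), 1 in A + T vs. T (Ebi3, 1.08 ± 0.37) and 0 in A + T vs. S. Of the 4 tested, Ctf1 (cardiotrophin-1) had the highest level, at 5.59 ± 0.453 CPM in sham, 5.76 ± 0.627 in T and, in A + T, 6.68 ± 0.867. Its change in T vs. S was 0.04 ± 0.16 (adjusted P = 0.883). Lif did not pass the filter, and Il6, Il11, Osm, Cntf, Ctf2, Il27 and Il31 were not among the named genes of the count table. Of the 3 other receptors tested, 2 fell in T vs. S and none rose, where 21.2% of all genes were called in either direction. Cntfr, the chain for ciliary neurotrophic factor, averaged 12.8 ± 3.59 CPM in sham, 4.31 ± 2.20 in T and, in A + T, 4.38 ± 2.00. It fell by 1.54 ± 0.37 in T vs. S (adjusted P = 0.0159) and by 1.53 in A + T vs. S (adjusted P = 0.0331), on the log2 scale. The first call was lost without animal 5 of S or 11 or 15 of T, and the second without animal 2, 3 or 5 of S or 20 or 21 of A + T. In A + T vs. T, 0 of the 3 passed with edgeR, with DESeq2 or at an unadjusted P under 0.05. Il27ra, the interleukin-27 chain, fell in T vs. S (−0.80 ± 0.21, adjusted P = 0.0230), a call lost without animal 3 or 5 of S or 11 or 12 of T, or without animals 12 and 22 together (adjusted P = 0.0657). Il11ra1, the interleukin-11 chain, had the highest level of the 3 and was not called, with −0.21 ± 0.11 in T vs. S (adjusted P = 0.209).

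The inhibitors apart from Socs3 mostly did not pass the test. Of 16 tested, 1 rose in T vs. S, 1 rose in A + T vs. T and none was called by edgeR in A + T vs. S, with medians of −0.02, −0.03 and −0.03. Over all genes 21.2%, 5.88% and 8.31% were called in the same order. In A + T vs. S, 3 inhibitors had an unadjusted P under 0.05 and DESeq2 called 1, Ptpn6. Pias1, an inhibitor of Stat proteins and a SUMO ligase, rose in T vs. S (0.39 ± 0.08, adjusted P = 0.00711), also when any 1 library was left out. Ptpn6, a phosphatase of blood cells, rose in A + T vs. T (1.01 ± 0.25, adjusted P = 0.0430), a call that held in 2 of the 9 fits without a library, those without animal 2 and animal 12. Beside it, 4 of the 6 macrophage markers were called higher in that comparison. Mrc1, also of the 6, was lower on average, at 37.8 ± 11.4 CPM in A + T against 47.0 ± 0.930 in T. The 6 markers summed to 248 to 329 CPM in A + T against 197 to 221 in T. Their part in the change of Ptpn6 was not tested. Ptpn11, the phosphatase recruited by gp130, had the highest level per length of the inhibitors and gave −0.03 ± 0.10 in T vs. S (adjusted P = 0.825).

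Of the 4 other C/EBP genes tested, Cebpz, which encodes a ribosome assembly factor, rose in T vs. S (0.40 ± 0.09, adjusted P = 0.0107). Cebpa, known from fat cells, liver and myeloid cells, rose in A + T vs. S (1.26 ± 0.30, adjusted P = 0.0322), from 7.04 ± 1.58 CPM in S to 16.8 ± 5.89. That call was lost without animal 2, 3 or 5 of S or 22 of A + T. In the same comparison 5 of the 6 macrophage markers were called higher, where 8.31% of all genes were called in either direction. Mrc1, the other marker, gave −0.36 ± 0.16 (adjusted P = 0.194). The 6 markers summed to 248 to 329 CPM in A + T against 190 to 205 in S. Their part in the changes of Cebpa and of Jak3 was not tested. In A + T vs. T edgeR called 0 of the 4, DESeq2 called 1 (Cebpa), and 2 had an unadjusted P under 0.05. Ddit3, a stress-induced partner, had the highest level per length of the 4 and gave −0.19 ± 0.15 in T vs. S (adjusted P = 0.414).

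Of 27 listed targets of Stat3 that were tested, 14 rose and 3 fell in T vs. S, with a median change of 0.60 against −0.0038 over all genes, of which 21.2% were called. Between 15 and 19 were called when 1 library was left out. In A + T vs. S, where 8.31% of all genes were called, 3 rose and 1 fell, with a median of 0.34. Between A + T and T, where 5.88% were called, 2 rose and 4 fell, with a median of −0.05. The count in A + T vs. T was 3 without animal 11 and 10 without animal 22, and that in A + T vs. S was 9 without animal 20, 7 with DESeq2 and 9 with the likelihood ratio test. Fga, Fgb and Fgg, which encode the fibrinogen chains, did not pass the filter.

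The largest called rises in T vs. S among these targets were of Serpina3n and Lcn2, both secreted acute-phase proteins, and of metallothioneins. Some other acute-phase genes of the list did not follow. Saa3 and Hp were not called, and their T means rested on animal 12. Hp stood at 33.9 CPM there, against 5.64 and 2.62 in the other T hearts. A2m averaged 2.67 ± 1.60 CPM in S and 1.12 ± 0.33 in T, and was called by DESeq2 but not by edgeR. Serpina3n, a protease inhibitor, stood at 15.9, 16.2 and 51.4 CPM in sham, 236, 321 and 268 in T and, in A + T, 70.1, 45.2 and 86.5. It rose in T vs. S (3.32 ± 0.43, adjusted P = 0.000772) and fell in A + T vs. T (−2.03 ± 0.40, adjusted P = 0.0207). Mt2, which binds zinc, averaged 15.5 ± 8.86 CPM in sham, 174 ± 28.8 in T and, in A + T, 55.2 ± 18.7. It rose in T vs. S (3.51 ± 0.36, adjusted P = 0.000231), fell in A + T vs. T (−1.66 ± 0.33, adjusted P = 0.0199) and was above S in A + T vs. S (1.85 ± 0.35, adjusted P = 0.0124). Mt1, the target with the highest level per length over the 9 hearts (in S alone, Vegfa was above it), did so too, with 2.43 ± 0.20 (adjusted P = 8.89e-05), −1.19 ± 0.19 (adjusted P = 0.00840) and 1.25 ± 0.19 (adjusted P = 0.00626). The falls of Serpina3n and Mt2 lost their call without animal 11 or 12 of T or 20 or 21 of A + T, and the rise of Mt2 in A + T vs. S without animal 2 or 3 of S. Lcn2, an iron-siderophore carrier, rose in T vs. S (2.52 ± 0.41, adjusted P = 0.00244), with −1.43 ± 0.39 in A + T vs. T (adjusted P = 0.0576).

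Survival and growth genes among the targets rose by less. Bcl2l1, which encodes the survival protein Bcl-xL, rose by 1.15 ± 0.24 in T vs. S (adjusted P = 0.00769) and Mcl1, of the same family, by 0.60 ± 0.10 (adjusted P = 0.00231). Pim1, a survival kinase, rose by 0.57 ± 0.11 (adjusted P = 0.00478) and Bcl3, a co-activator of NF-κB, by 0.68 ± 0.16 (adjusted P = 0.0154), the last call being lost without animal 2. The transcription factor gene Myc rose in T vs. S (1.33 ± 0.17, adjusted P = 0.000815) and in A + T vs. S (1.43 ± 0.17, adjusted P = 0.00244), from 3.71 ± 0.243 CPM in S to 9.42 ± 1.24 in T and 10.04 ± 2.00 in A + T. It had no called change in A + T vs. T (0.10 ± 0.16, adjusted P = 0.777).

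Further rises in T vs. S were of Lrg1, a secreted glycoprotein (0.91, adjusted P = 0.00664), Il4ra, the interleukin-4 receptor (0.89, adjusted P = 0.00970), Hif1a, of the hypoxia response (0.37, adjusted P = 0.0111), and Cp, ceruloplasmin (0.60, adjusted P = 0.00395). Cp also fell in A + T vs. T (−0.67, adjusted P = 0.00955), a call lost without animal 11. Tnfrsf1a, the main receptor of tumour necrosis factor, rose by 0.48 in T vs. S (adjusted P = 0.0344). Among the fits without 1 library, this call held only in the 3 without an A + T library. It was also made by DESeq2 and in the edgeR fit without animals 12 and 22 (adjusted P = 0.00166).

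Against the direction of most listed targets, Ccnd1, which encodes cyclin D1, stood at 34.9, 34.3 and 33.8 CPM in sham, 10.5, 11.6 and 12.2 in T and, in A + T, 19.3, 20.2 and 22.7. It fell by 1.59 ± 0.09 in T vs. S (adjusted P = 1.94e-05), was higher in A + T vs. T (0.86 ± 0.09, adjusted P = 0.00269) and stayed below S in A + T vs. S (−0.73 ± 0.09, adjusted P = 0.00253). Steap4, a metalloreductase, fell in T vs. S (−0.99 ± 0.10, adjusted P = 0.000231) and rose in A + T vs. T (0.66 ± 0.10, adjusted P = 0.00754). Vegfa, the endothelial growth factor, fell in T vs. S (−0.49, adjusted P = 0.0230), a call lost without any 1 of animals 2, 3 and 5 of S and 11 and 12 of T. All 6 endothelial markers were lower in T vs. S, 4 of them called, where 21.2% of all genes were called in either direction. The part of the endothelial markers in these changes, as that of the fibroblast markers, was not tested.

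**Figure D4:**
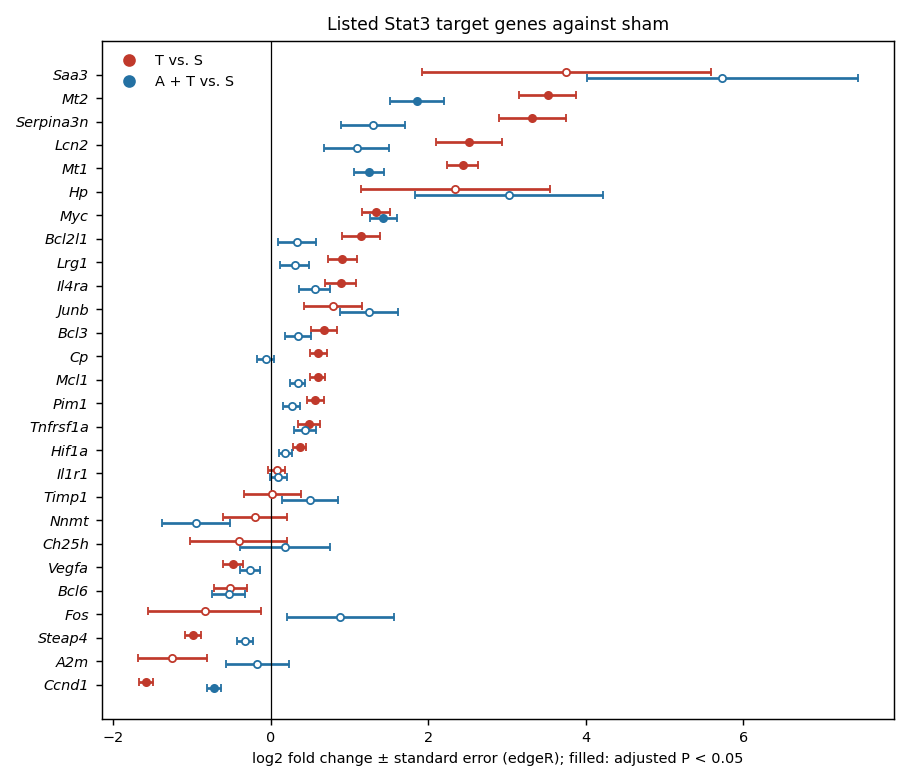
Log2 fold change (horizontal axis, edgeR, bars SE) of the 27 tested Stat3 target genes against sham, in T and in A + T, ordered by T vs. S. Filled points have an adjusted P under 0.05, 17 in T vs. S and 4 in A + T vs. S, with Saa3 (not called in either), Mt2 and Serpina3n at the top and Ccnd1 at the bottom.

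The 10 genes differed in how alike their patterns over the 9 hearts were. Likeness was measured as the root mean square difference of log2 CPM, each gene centred on its own mean, where 0 is an identical pattern. The closest pair was Il6st and Jak2 at 0.093, both nearly flat. Osmr and Stat3 were at 0.25 and Socs3 and Stat3 at 0.48, where Stat3 itself varied by 0.44 and Socs3 by 0.75 around their means. Over all genes tested the nearest to Stat3 were Plin4 (0.094), Lpl (0.096), Tns2 (0.11), Flot1 (0.11) and Tcp11l2 (0.12). Plin4 coats lipid droplets and Lpl is lipoprotein lipase, and both rose in T vs. S by 1.10 and 1.06 and fell in A + T vs. T by 0.59 and 0.58, against 1.05 and 0.44 for Stat3. Nearest to Socs3 were Pim3 (0.18), Itih4 (0.19), Tcap (0.23), 1110034G24Rik (0.25) and C4b (0.26), all higher in T vs. S by between 1.28 and 1.77. Pim3 is a survival kinase, Itih4 an acute-phase protein, Tcap a protein of the sarcomere and C4b a complement component. These genes were picked for the likeness of their pattern over the same libraries, so their changes are a description.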

How the data were processed

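Heart RNA of 9 NSG mice, 3 per group by the sample labels, was analysed. The authors kept RNA with an integrity number of 7 or more, sequenced mRNA libraries as 75-base pairs, aligned them to mm10 with STAR, counted uniquely mapped reads per RefSeq gene by strand with featureCounts, and deposited these counts without normalization. The deposited log2 values are TMM-normalised CPM per gene length: their offset from the log2 CPM computed here had a median SD of 0.00268 over libraries. The 3443 rows without a gene name were left out. The study's methods do not name the test behind its fold changes, and its columns of fold changes and P-values were used only to check the labels.

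Genes below 0.5 CPM in over 4 libraries were removed (526 of 13890). The 3 comparisons were tested by the quasi-likelihood test of edgeR 4.0.16 (R 4.3.3) with TMM normalization and all 9 libraries in 1 fit, checked on simulated data. The SE is the log2 fold change over the square root of F. Exact permutation tests used log2(CPM + 0.1). No pair of libraries agreed within counting noise, and P-values measure the spread between animals. Floors cover counting error only. Alternatives were DESeq2 1.42.0, limma 3.58.1 on the deposited log2 values, the likelihood ratio test, other scalings and filters, fits of only the groups compared, and fits without a library or without animals 12 and 22.

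The genes named are the 10, the genes of the pathway lists called in any comparison, the highest-level gene of each list and the 5 nearest patterns to Stat3 and Socs3. Some ligands and acute-phase targets that were not called are named beside them. A gene of these lists is not reported here. The 10 genes and all lists were chosen with earlier results of these data known. Coordinates of genes are from GENCODE for GRCm38, and sequences before the start are from RefSeq for GRCm38.p6, which held 9 of the 10 genes (all but Cebpd).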

Additional observations from a re-analysis of the deposited data

How the results depend on the processing

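With library size only, 1637 genes were called in T vs. S, 438 in A + T vs. T and 555 in A + T vs. S, against 2837, 786 and 1110, and 1 of the 10 genes in A + T vs. T against 3. The share of calls that were higher was 48.3% in T vs. S and 35.7% with library size only. The same share in A + T vs. T was 52.5%, and 65.5% with upper-quartile and 71.7% with library size only. DESeq2 called 1198 genes in A + T vs. T, the likelihood ratio test 1195 and a fit of only the groups compared 217, the last with 1 of the 10 genes. Among values near 0 in A + T vs. S, the sign turned for Il6st (0.0027) and Jak2 (0.0022) with upper-quartile scaling and for Lifr (0.0486) without animals 12 and 22.

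When 1 library was left out, 1765 to 3786 genes were called in T vs. S, 130 (without animal 11) to 1006 (without animal 22) in A + T vs. T and 269 (without animal 2) to 1086 in A + T vs. S. The calls among the 10 genes numbered 3 to 6, 1 to 3 and 1 to 4. Changes whose sign turned in such fits were those of Il6ra (−0.14 to 0.27) and Cebpd (−0.87 to 0.16) in A + T vs. T, and of Il6st (−0.0498 to 0.0184), Lifr (−0.0902 to 0.0485) and Jak2 (−0.0460 to 0.0062) in A + T vs. S. Where no construction of the alternative shows it, the cause was not tested. No paired analysis was possible because the animal numbers are not shared between groups. Il6ra rested on 71 to 152 counts per library, which limits the precision of its changes.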
